A study of Homo sapiens with 12 samples.

Results

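The miR-17/92 cluster on chromosome 13 and its paralogue on chromosome X, the miR-106a to miR-363 cluster, are short stretches of DNA that each encode 6 microRNA hairpins. The guide strands of both clusters were taken by their name on a human microRNA array: hsa-miR-17, hsa-miR-18a, hsa-miR-18b, hsa-miR-19a, hsa-miR-19b, hsa-miR-20a, hsa-miR-20b, hsa-miR-92a and hsa-miR-363, 9 of the 851 human microRNA names listed there. The prefix hsa, for human, is left out below. The guide strand of miR-106a was not analysed here. Both clusters carry a copy of miR-19b and of miR-92a, so the signal of these 2 guides cannot be assigned to either locus.

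A cluster of this kind is transcribed as a single primary RNA. The nuclear enzyme Drosha cuts out the hairpins, and Dicer, the RNase in the cytoplasm, cuts each hairpin to a short duplex from which the guide strand is loaded into an Argonaute protein. The guide then finds its targets mainly through its seed, the bases next to its 5′ end. The miR-17/92 cluster is activated by the transcription factor MYC and is known as an oncogenic microRNA cluster in lymphomas and in breast cancer. Metformin is a drug against type 2 diabetes.

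All samples were SUM159 cells, an established human breast cancer line, infected with a PLKO1-based lentivirus and kept as stable lines. The 4 groups were cells with a Dicer shRNA given 0.5 mM metformin, cells with a scrambled control shRNA given 0.5 mM metformin, cells with the Dicer shRNA given vehicle (PBS), and cells with the control shRNA given vehicle. Treatment lasted 24 h, each group had 3 samples that the labels call biological replicates, and every line carried a lentiviral shRNA. Cy3-labelled total RNA of each sample went onto 1 Agilent microRNA array, read in 1 colour. The arrays hold no messenger RNA, so the targeted gene, DICER1, was not measured.

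Values below are array signals in arbitrary units, divided on each array by the 75th percentile of 98 human microRNAs that every array detected. A microRNA is called detected where the scanner software flagged it so. For log2 values, undetected and lower signals were set to a floor of 3.01 units. Between 130 and 204 human microRNAs were detected per array. Slide 1 held the vehicle samples and slide 2 the metformin samples, and the control shRNA samples took the first positions on each. The drug and the slide therefore cannot be told apart, and nor can the line and the position. A microRNA was fitted if all 3 arrays of at least 1 group detected it, which left 208 human microRNAs, and a change was called at a Benjamini-Hochberg adjusted p under 0.05 from limma. Fewer cells and less RNA per cell cannot be told apart in such samples. Of 7 microRNAs known to be abundant in SUM159-like mesenchymal cells, such as miR-21 and miR-221, all were detected on every array of 3 groups and 5 on every array of control shRNA cells with metformin. Their summed signal was 334 to 491 units in Dicer shRNA cells with metformin, 55.3 to 109 units in control shRNA cells with metformin, 768 to 940.3 units in Dicer shRNA cells with vehicle and 2606 to 2936 units in control shRNA cells with vehicle. These levels run in the same order of groups as miR-92a below. All 7 were called lower in Dicer shRNA cells with vehicle, where 38.0% of the fitted microRNAs were called lower and 59.6% in either direction. All 7 were called higher in Dicer shRNA cells with metformin, where 13.9% were called higher and 38.9% in either direction. With metformin all 7 were called lower in both lines. There 40.4% of the fitted microRNAs were called lower in control shRNA cells (88.0% in either direction) and 18.3% in Dicer shRNA cells (24.5%). Their part in the changes of the guides was not tested. Of 6 epithelial microRNAs, miR-200a, miR-200b, miR-200c, miR-141 and miR-429 were detected on no array and miR-205 in every group.

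The mature sequences are shown because the 9 guides fall into 4 seed families, and because the array has to tell apart guides that differ by 1 or 2 bases. All 9 names matched RefSeq (GRCh38.p14). Capitals mark the seed, bases 2 to 8 from the 5′ end.
miR-17: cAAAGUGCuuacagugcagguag
miR-20a: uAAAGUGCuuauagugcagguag
miR-20b: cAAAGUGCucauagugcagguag
miR-18a: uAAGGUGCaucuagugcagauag
miR-18b: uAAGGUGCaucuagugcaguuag
miR-19a: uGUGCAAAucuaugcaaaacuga
miR-19b: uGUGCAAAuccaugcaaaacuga
miR-92a: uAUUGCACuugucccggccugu
miR-363: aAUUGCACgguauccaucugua
Counted from the 5′ end, miR-19a and miR-19b differ by U11C, miR-18a and miR-18b by A20U, and miR-17 and miR-20a by C1U and C12U. Against miR-17, miR-20b has the changes U10C and C12U. miR-92a and miR-363 share the seed and differ at 12 positions. Signals of guides that differ by 1 or 2 bases may share hybridisation, and how far the probes separate them was not tested. The G and C content was highest in miR-92a, at 54.5%, and lowest in miR-19a, at 34.8%.

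The mature sequences of the chromosome 13 cluster span chr13:91350618-91351382 on the plus strand of GRCh38.p14, 765 bases. Those of the chromosome X cluster span chrX:134169382-134170266 on the minus strand, 885 bases. Dicer cuts at the loop end of each hairpin, and 2 precursors from the ends of the chromosome 13 cluster are printed to show arms and loop. Capitals here mark both mature arms, with the guide first in MIR17 and second in MIR92A1.
MIR17, chr13:91350605-91350688: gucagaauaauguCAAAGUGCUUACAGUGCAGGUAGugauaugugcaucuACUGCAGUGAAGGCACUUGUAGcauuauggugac
MIR92A1, chr13:91351314-91351391: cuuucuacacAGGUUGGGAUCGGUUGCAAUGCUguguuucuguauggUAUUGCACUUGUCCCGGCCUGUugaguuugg
In both, 14 bases lie between the arms. Among the members, 5 guides come from the 5′ arm and 4 from the 3′ arm of their hairpin.

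In control shRNA cells with vehicle, 7 of the 9 guides were detected on all 3 arrays, miR-20b on 2 arrays and miR-363 on none. In the other groups most of them were below detection. Detected on all 3 arrays of a group were only miR-92a in Dicer shRNA cells with metformin and in control shRNA cells with metformin, and miR-92a and miR-19b in Dicer shRNA cells with vehicle. The 7 guides detected throughout control shRNA cells with vehicle were fitted, and miR-20b and miR-363 were not. Of these 7, all but miR-92a and miR-19b passed the detection filter through that group alone, which fixes the direction of any change, so the counts of called members below describe the levels and give no added support.

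**Figure D1:**
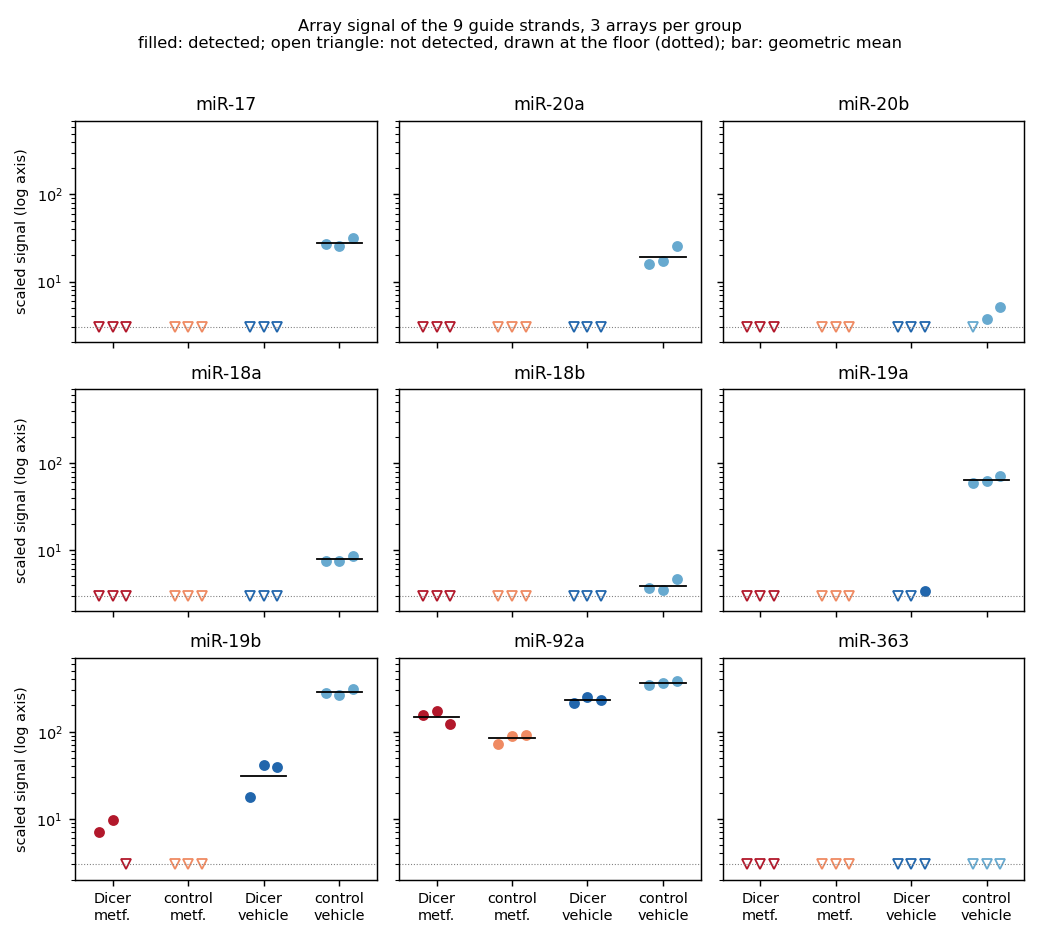
Scaled array signal (log axis, arbitrary units) of the 9 guides in the 4 groups, 3 arrays each. Filled points were detected, open triangles were not and are drawn at the floor of 3.01, and bars are geometric means of groups detected on all 3 arrays. miR-92a is the only guide detected on all 12 arrays, and miR-363 was detected on none.

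miR-92a, which in endothelial cells represses the integrin subunit ITGA5, was detected on all 12 arrays, with a stated measurement error of 7.41% to 8.08% of the signal. It read 155, 173 and 122 units in Dicer shRNA cells with metformin and 72.2, 90.3 and 90.7 units in control shRNA cells with metformin. It read 212, 250.5 and 231 units in Dicer shRNA cells with vehicle and 347, 362.6 and 382 units in control shRNA cells with vehicle. The 4 groups did not overlap on any array. The means were 150.2 ± 25.6 units in Dicer shRNA cells with metformin, 84.4 ± 10.6 units in control shRNA cells with metformin, 231 ± 19.4 units in Dicer shRNA cells with vehicle and 364 ± 17.4 units in control shRNA cells given vehicle (SD, n = 3 each). From high to low the order was control shRNA with vehicle, Dicer shRNA with vehicle, Dicer shRNA with metformin and control shRNA with metformin, and each neighbouring pair passed the test. miR-363, which carries the same seed, gave no detected signal on any of the 12 arrays.

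miR-19b, which shares its seed with miR-19a, was the other guide detected on all 3 arrays of a group besides control shRNA cells with vehicle. In Dicer shRNA cells with metformin it read 7.10 and 9.76 units on 2 arrays and was not detected on replicate 3, and control shRNA cells with metformin gave no detected signal. In Dicer shRNA cells with vehicle it read 17.8, 41.5 and 39.8 units, against 279.8, 263 and 308 units in control shRNA cells with vehicle. No array of one vehicle group reached the other. miR-19a was detected on 1 array of Dicer shRNA cells with vehicle, at 3.43 units on replicate 3, against 58.4, 61.8 and 71.6 units in control shRNA cells with vehicle, and on no array with metformin.

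The miR-17 family is known to repress the cell cycle inhibitor CDKN1A and the cell death gene BCL2L11. Its guides among the 9, miR-17, miR-20a and miR-20b, were detected in control shRNA cells with vehicle alone. There miR-17 read 26.7, 25.3 and 31.5 units. miR-20a read 15.9, 17.0 and 25.4 units. miR-20b was near the floor, at 3.69 and 5.14 units on replicates 2 and 3 and not detected on replicate 1. The other 9 arrays detected none of these 3 guides.

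The miR-18 family, whose targets include the matrix protein genes THBS1 and CCN2, was likewise limited to control shRNA cells with vehicle. miR-18a read 7.54, 7.51 and 8.47 units. miR-18b read 3.64, 3.47 and 4.63 units, close to the floor, with a stated error of 20.3% to 24.7% of the signal. A change of miR-18b can therefore hardly be measured on these arrays.

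The first comparison sets Dicer shRNA against control shRNA cells with vehicle, where the line and the array position cannot be told apart. With vehicle, all 7 fitted guides were lower in Dicer shRNA than in control shRNA cells, where 38.0% of the 208 fitted microRNAs were called lower and 59.6% were called in either direction. miR-19b averaged 33.02 ± 13.2 units in Dicer shRNA cells and 283 ± 22.7 units in control shRNA cells, 9.17-fold lower (log2 change -3.20 ± 0.42 SE, adjusted p = 8.78e-05). miR-92a was 1.58-fold lower (-0.66 ± 0.14, adjusted p = 0.00234). These 2 are the only guides measured on both sides of the comparison. The call of miR-92a was lost under quantile normalization (adjusted p = 0.473) and without replicate 1 of control shRNA cells with metformin (adjusted p = 0.104).

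The other 5 are limited by the floor. Each "at least" fold assumes that an undetected signal lay no higher than the floor or its array's lowest detected signal. Whether it did was not tested. Undetected in Dicer shRNA cells, miR-17 was at least 8.56-fold lower (adjusted p = 6.47e-10), miR-20a at least 5.87-fold lower (1.39e-07), miR-18a at least 2.42-fold lower (1.29e-07) and miR-18b at least 1.20-fold lower (0.0114). miR-19a, detected on 1 array of Dicer shRNA cells, had a log2 change of -4.34 ± 0.10 (adjusted p = 1.82e-10). A group at the floor has no spread of its own, so the errors of these 5 are understated. The call of miR-18b was lost without replicate 2 of the Dicer shRNA cells with vehicle (adjusted p = 0.0659) or without replicate 1 of the control shRNA cells with metformin (0.297). It was also lost under quantile normalization, where the change of miR-18b was 0. In all 7 the groups did not overlap, as in 63.0% of the fitted microRNAs.

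**Figure D2:**
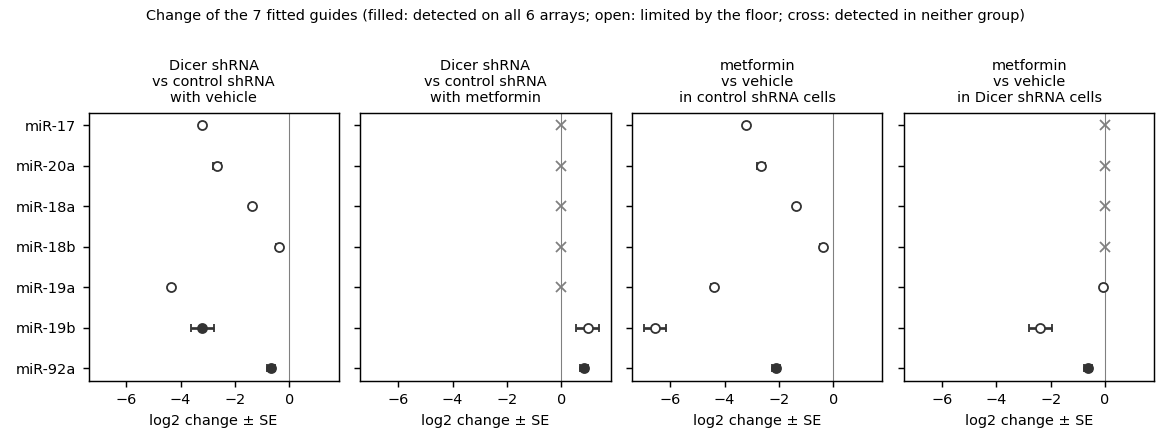
Log2 change with its standard error for the 7 fitted guides in 4 comparisons (limma, 3 arrays per group). Filled points were detected on all 6 arrays compared, open points are limited by the floor and crosses were detected in neither group. With vehicle all 7 were called lower in Dicer shRNA cells, and with metformin miR-92a was called higher there.

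The signals of miR-19b and miR-92a, which can come from one transcript, changed by unequal amounts on these arrays. Their ratio within an array does not depend on a scaling factor per array. It was 0.0842, 0.166 and 0.173 in Dicer shRNA cells with vehicle, against 0.806, 0.725 and 0.806 in control shRNA cells with vehicle. The groups did not overlap, and the mean log2 ratio differed by -2.54, or 5.81-fold. An exact permutation test gave a two-sided p of 0.1, the smallest that 3 against 3 arrays allow. The ratio in Dicer shRNA cells with metformin was 0.0457 and 0.0565 on the 2 arrays that detected miR-19b. The ratio describes unequal change of these signals, and it cannot say which of the pair moved. How each probe responds to its guide was not tested.

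**Figure D3:**
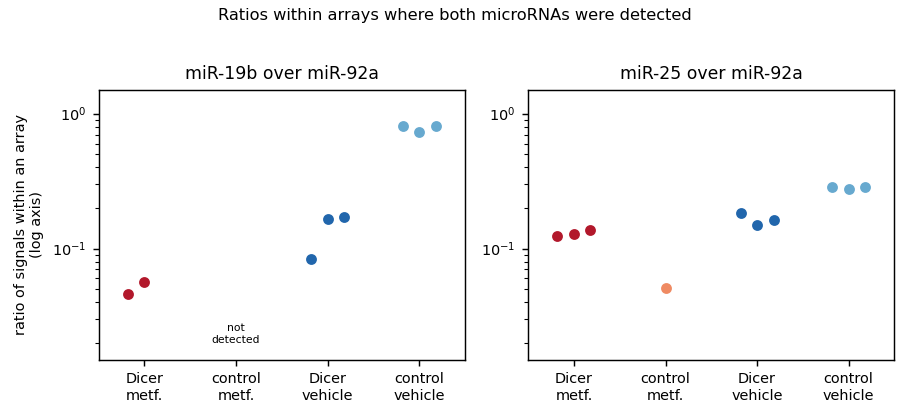
Ratio of miR-19b to miR-92a (left) and of miR-25 to miR-92a (right) within each array that detected both (log axis). For miR-19b the 3 arrays of Dicer shRNA cells with vehicle lie between 0.0842 and 0.173, all below the 3 arrays of control shRNA cells with vehicle at 0.725 to 0.806.

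With metformin, the same knockdown gave a different picture. Titles, descriptions and characteristics set both metformin groups, but the source names call the Dicer shRNA samples treated controls and the control shRNA samples untreated controls. Were these 2 groups exchanged, the changes in this comparison would turn their sign and both comparisons of metformin with vehicle would change. For miR-92a and miR-19b, the guides detected with metformin, the interaction and the average over both slides given below would change as well. miR-92a was 1.77-fold higher in Dicer shRNA than in control shRNA cells (log2 change 0.83 ± 0.14 SE, adjusted p = 0.00107), and it was the 1 guide called. Of the fitted microRNAs 13.9% were called higher and 38.9% in either direction. miR-19b, detected on 2 arrays of Dicer shRNA cells and on none of control shRNA cells, did not pass (0.98 ± 0.42, adjusted p = 0.0891). It passed without replicate 3 of the Dicer shRNA cells with metformin, the array that did not detect it (adjusted p = 0.00519), and without replicate 1 of the Dicer shRNA cells with vehicle (0.0482). The call of miR-92a was lost when arrays were scaled to their median (adjusted p = 0.106). No array of either group detected the other 5 fitted guides, so they have no measured change.

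In control shRNA cells, the metformin arrays were compared with the vehicle arrays of the other slide, so drug and slide cannot be told apart. All 7 fitted guides were lower with metformin, where 40.4% of the fitted microRNAs were called lower and 88.0% in either direction. miR-92a was 4.33-fold lower (log2 change -2.12 ± 0.14 SE, adjusted p = 2.22e-07), a direction that depends on the scaling, as given below. miR-19b, detected on no metformin array of this line, was at least 94.0-fold lower (adjusted p = 1.35e-07), and miR-19a at least 21.2-fold lower (1.59e-10). The bounds of the dimmer guides were smaller: miR-17 was at least 9.21-fold lower, miR-20a at least 6.32-fold, miR-18a at least 2.60-fold and miR-18b at least 1.29-fold (adjusted p = 0.00744, or 0.281 without replicate 1 of the metformin arrays). A bound follows how bright the guide was with vehicle, so the order of these bounds is no order of effects. In all 7 the groups did not overlap, as in 91.8% of the fitted microRNAs.

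In Dicer shRNA cells, 2 of the 7 guides were lower with metformin than with vehicle, where 18.3% of the fitted microRNAs were called lower and 24.5% in either direction. miR-19b changed by -2.38 ± 0.42 on the log2 scale (adjusted p = 0.0022, detected on 2 of 3 metformin arrays). miR-92a was 1.55-fold lower (-0.63 ± 0.14, adjusted p = 0.0103). Without replicate 2 of the Dicer shRNA cells with vehicle, miR-92a no longer passed (adjusted p = 0.0534). miR-19a did not pass (-0.06 ± 0.10, adjusted p = 0.784), and the remaining 4 were detected in neither group.

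The change with metformin differed between the 2 lines, tested as an interaction. For miR-92a the difference between the metformin change in Dicer shRNA cells and that in control shRNA cells was 1.48 ± 0.20 on the log2 scale (adjusted p = 1.09e-04), and for miR-19b it was 4.17 ± 0.59. The other 5 guides passed as well, with differences of 0.37 to 4.34, but as they were detected on no metformin array their differences repeat the vehicle comparison at the floor. That of miR-18b passed on a narrow margin and lost its call in 10 of the 12 fits that left out 1 array. Under quantile normalization the interaction of miR-18b was 0, and that of miR-18a lost its call (adjusted p = 0.102). Over the fitted microRNAs 37.0% had a called positive interaction and 76.4% a called one. Averaged over both slides, the Dicer shRNA change was called lower for miR-17, miR-18a, miR-19a, miR-19b and miR-20a, 5 of 7, where 35.6% of the fitted microRNAs were called lower and 51.0% in either direction. All of these but miR-19b were detected on no metformin array. Their average repeats the vehicle comparison at the floor and gives no support from the metformin slide. miR-19b lost its call without replicate 1 of control shRNA cells with metformin (adjusted p = 0.0594) and under quantile normalization (0.143). It was also lost when arrays were scaled to the hur features described below (0.0839). For miR-92a this average was 0.08 (adjusted p = 0.546), because its changes on the 2 slides had opposite signs.

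The direction of miR-92a rests on how arrays are scaled, and the control features of the array moved with the groups. The 4 features named hur that were detected on all 12 arrays, whose nature is not given in the sources used here, are listed by the array as controls. hur_2 read 72542, 75496 and 54038 units in Dicer shRNA cells with metformin and 16133, 21317 and 23057 units in control shRNA cells with metformin. It read 110850.0, 115940.0 and 111380.0 units in Dicer shRNA cells with vehicle and 167510.0, 163680.0 and 171980.0 units in control shRNA cells with vehicle. This is the same order of groups as for miR-92a, and hur_4 and hur_6 shared it without overlap. Over the 4 features the median log2 change was -0.81 for Dicer shRNA against control shRNA with vehicle and 1.95 with metformin. For metformin against vehicle it was -3.84 in control shRNA cells and -0.999 in Dicer shRNA cells, with all 4 features on one side each time. Of the 10 viral microRNA names detected on all arrays, 10 had a positive change for the knockdown with vehicle, 9 a negative one for the knockdown with metformin, 10 a positive one for metformin in control shRNA cells and 8 a positive one for metformin in Dicer shRNA cells. Their median changes of 0.87, -0.49, 1.38 and 0.34 were opposite in sign to those of the hur features. The part of these shifts in the changes of the guides was not tested.

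**Figure D4:**
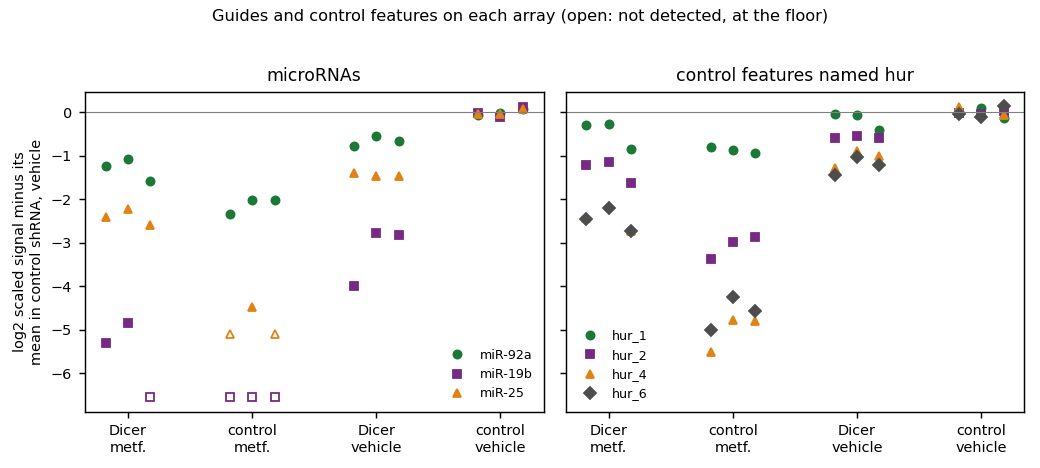
Log2 scaled signal of miR-92a, miR-19b and miR-25 (left) and of the 4 control features named hur (right) on each array, minus the mean of control shRNA cells with vehicle. Open symbols were not detected and stand at the floor. For miR-92a, hur_2, hur_4 and hur_6 the groups run in one order, with control shRNA cells with metformin lowest and control shRNA cells with vehicle highest.

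Scaled to the hur features instead, an alternative chosen after seeing the data, miR-92a turned round in each comparison. It was then 0.10 for the knockdown with vehicle (adjusted p = 0.179), -0.89 for the knockdown with metformin (9.44e-07), 1.28 for metformin in control shRNA cells (2.92e-08) and 0.29 for metformin in Dicer shRNA cells (0.00307). For metformin in control shRNA cells the median of the 98 microRNAs seen on every array was then 4.22, against 0.93 under the 75th percentile scaling. A factor per array moves miR-92a and this median alike, so the difference between their changes is nearly fixed under all scalings but quantile normalization and says nothing about stability. That difference was -0.99 for the knockdown with vehicle, 1.15 for the knockdown with metformin, -3.05 for metformin in control shRNA cells and -0.80 for metformin in Dicer shRNA cells. Under quantile normalization it was -0.84, 0.95, -2.85 and -0.82 in the same order. Whether a guide was detected does not depend on the scaling.

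**Figure D5:**
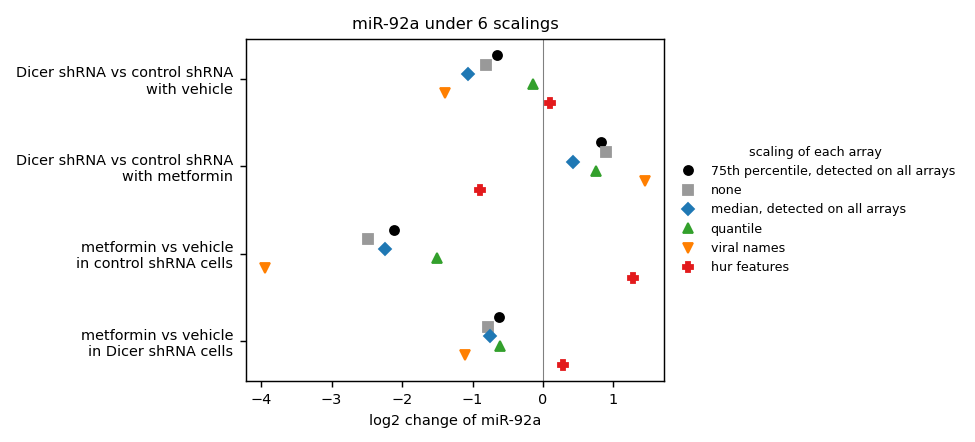
Log2 change of miR-92a in 4 comparisons under 6 ways of scaling the arrays. Scaling to the hur features gives 0.10, -0.89, 1.28 and 0.29 from top to bottom, opposite in sign to the other 5 scalings.

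Markers of other cells moved with the groups too. Of 7 blood cell microRNAs, 5 were detected on no array, including miR-451, miR-142-3p and miR-150. The other 2, miR-486-5p and miR-223, were detected on all 3 arrays of control shRNA cells with metformin alone, with a summed signal of 15.2 to 20.4 units. Of 4 muscle microRNAs, miR-1 and miR-206 were detected on no array. miR-133a and miR-133b summed to 7.74 to 21.1 units in Dicer shRNA cells with metformin, 24.9 to 29.9 units in control shRNA cells with metformin, 0 to 6.52 units in Dicer shRNA cells with vehicle and 0 to 4.41 units in control shRNA cells with vehicle. Their part in the changes of the guides was not tested.

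The passenger strands, the partners discarded from each duplex, were mostly not seen. Of 12 passenger names of both clusters, 2 were detected and fitted. miR-17*, the partner of miR-17 and the second arm of the hairpin printed above, read 6.46 and 6.63 units on 2 of 3 arrays of Dicer shRNA cells with vehicle, against 11.7, 12.8 and 13.9 units in control shRNA cells with vehicle. Its log2 change was -1.34 ± 0.25 (adjusted p = 0.00098), and it was at least 4.24-fold lower with metformin in control shRNA cells, where it was not detected. miR-17* passed the detection filter through control shRNA cells with vehicle alone, which fixes the direction of any change. miR-17 itself was undetected in Dicer shRNA cells with vehicle, on the same arrays that detected its partner. Signals of different probes have no common scale, so this sets no level of one strand against the other.

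miR-18b* was the exception among the strands of both clusters, since it read highest where the guides read lowest. It read 14.5, 11.4 and 16.8 units in Dicer shRNA cells with metformin and 21.5, 21.0 and 25.5 units in control shRNA cells with metformin. In Dicer shRNA cells with vehicle it read 13.1, 2.20 and 5.56 units, and in control shRNA cells with vehicle it was detected on replicate 2 alone, at 7.49 units. Its sequence is shown beside the guide from the other arm of the same hairpin.
miR-18b*: uGCCCUAAaugccccuucuggc
miR-18b: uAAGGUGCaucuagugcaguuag
In control shRNA cells it rose by 2.47 ± 0.50 on the log2 scale with metformin (adjusted p = 0.000868), a value limited by the floor on the vehicle side. Its log2 change with metformin in Dicer shRNA cells was 1.22 ± 0.50 and did not pass (adjusted p = 0.0987), and neither knockdown comparison passed.

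Another paralogous cluster, miR-106b/25 on chromosome 7, carries guides with the same seeds as miR-17 and miR-92a, and MCM7 is its host gene. Of 8 names outside the 9 guides that share a member's seed, its 3 guides were fitted, miR-92b was detected on 3 arrays in 3 groups, and miR-32, miR-367, miR-519d and miR-526b* on none. The 3 guides are shown against the members they resemble.
miR-93: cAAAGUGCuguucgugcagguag
miR-106b: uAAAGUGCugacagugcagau
miR-25: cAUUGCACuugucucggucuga
miR-25 read 19.3, 22.1 and 16.9 units in Dicer shRNA cells with metformin and was detected on 1 array of control shRNA cells with metformin, at 4.62 units. It read 38.8, 37.3 and 37.4 units in Dicer shRNA cells with vehicle and 99.7, 99.4 and 109 units in control shRNA cells with vehicle. These are the same directions as for miR-92a, from which it differs at 4 positions.

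With vehicle, all 3 were lower in Dicer shRNA cells, where 38.0% of the fitted microRNAs were called lower and 59.6% in either direction. miR-25 was 2.71-fold lower (adjusted p = 4.4e-05), miR-93 4.01-fold lower (6.12e-05), and miR-106b, detected on 2 arrays of Dicer shRNA cells, changed by -3.39 ± 0.43 on the log2 scale (7.74e-05). Only control shRNA cells with vehicle brought miR-106b through the detection filter, which fixes the direction of any change in it. The ratio of miR-25 to miR-92a was 0.183, 0.149 and 0.162 in Dicer shRNA cells with vehicle and 0.287, 0.274 and 0.285 in control shRNA cells with vehicle, so that the groups did not overlap. With metformin miR-25 was higher in Dicer shRNA cells (2.48 ± 0.17, adjusted p = 1.04e-06), and miR-93 and miR-106b did not pass. In control shRNA cells all 3 were lower with metformin, where 40.4% of the fitted microRNAs were called lower and 88.0% in either direction. The log2 change was -4.88 ± 0.17 for miR-25, while miR-93 was at least 24.6-fold and miR-106b at least 25.01-fold lower. In Dicer shRNA cells miR-25 was 1.96-fold lower with metformin (adjusted p = 0.00193) and miR-93 was lower too (-2.35 ± 0.25), whereas miR-106b did not pass (adjusted p = 0.0609).

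The fitted microRNAs outside the clusters whose profile over the 4 group means lay nearest to the mean profile of the 7 fitted guides were miR-331-3p, miR-425, miR-130a, miR-361-5p and miR-205. Their root mean square differences from it were 0.121, 0.134, 0.274, 0.277 and 0.284 on the log2 scale, over 4 groups. That mean profile, centred on 0, stood at -0.72 in Dicer shRNA cells with metformin, -0.98 in control shRNA cells with metformin, -0.28 in Dicer shRNA cells with vehicle and 1.98 in control shRNA cells with vehicle. Among the members miR-20a lay nearest to it, at 0.249, and miR-19b farthest, at 1.45. All 5 microRNAs but miR-205 were undetected on most arrays, so that their likeness to the guides is partly a shared floor.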

How the data were processed

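The 12 samples were total RNA on microRNA arrays read in 1 colour, per the labels, although the protocol given there describes a kit for messenger RNA. Per the file headers, the deposited values are 1 intensity per name (total gene signal, linear), its stated error and a detection flag, with undetected names at a constant low value. The submitters' processing notes name Agilent Feature Extraction 9.1, and no source used here gives its background settings. Titles, descriptions and characteristics agree among themselves and set the groups. The source names differ for both metformin groups, giving treated controls for the Dicer shRNA samples and untreated controls for the control shRNA samples. An alternative used the deposited log2 series matrix of 221 names, whose normalization and centring are unknown (column medians 3.19 to 4.06).

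Scale factors were 0.869 to 1.20. Undetected values, and scaled values below the floor, were set to it (log2 1.59, the 5th percentile of detected signals, median over arrays) before log2 was taken. The 208 microRNAs were fitted with 4 group means (limma 3.58.1, lmFit and eBayes, R 4.3.3, with data.table, version 1.17.8) with 8 residual and 1.84 prior degrees of freedom. An "at least" fold sets the detected group's mean against the undetected group's floor, or its array's lowest detected signal where that is higher. It is a lower bound only if the undetected signals lay no higher than that level, which was not tested. The bound also holds only for the 75th percentile scaling. The fit was tested on simulated data. Sequences were read with Python 3.11.15, pandas 2.3.3 and numpy 2.4.6, and figures drawn with matplotlib 3.10.9. All 9 guides are named. Beside them every fitted passenger strand and seed relative is named, up to 4 members of other lists by size of change, and the 5 most alike microRNAs by root mean square difference. Members and lists were chosen with earlier results of these data known. Replicate arrays shared no identical values. The number of arrays limits the precision.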

Additional observations from a re-analysis of the deposited data

Results flagged for a closer look

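The Dicer shRNA change differed between metformin and vehicle for all 7 fitted guides, by a tested interaction in limma, which was called for 76.4% of the fitted microRNAs and called positive for 37.0%. The difference, the log2 change with metformin minus that with vehicle, was 3.2 for miR-17, 1.38 for miR-18a, 0.37 for miR-18b, 4.34 for miR-19a, 2.66 for miR-20a, 4.17 for miR-19b and 1.48 for miR-92a. For miR-17, miR-18a, miR-18b, miR-19a and miR-20a both metformin groups were undetected, so the change with metformin is 0 at the floor and the difference equals the size of the change with vehicle. These 5 also entered the fit through control shRNA cells with vehicle alone, which fixes their direction, and miR-18b lost its call in 10 of the 12 fits that left out 1 array. Under quantile normalization miR-18a and miR-18b were not called. miR-92a is the guide measured on all 12 arrays, with log2 changes of 0.83 with metformin and -0.66 with vehicle. The vehicle and metformin comparisons come from different slides, which cannot be told apart from the treatment. The source names differ from the titles for both metformin groups, and exchanging these groups would change the differences of miR-92a and miR-19b.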

How the results depend on the processing

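Leaving out changes of exactly 0 between undetected groups, 765 changes of single guides were recomputed under the alternatives. Of these 708 kept their call or lack of one, 40 lost the call, 11 gained one and 6 changed sign with a call before or after. A sign change with no call before or after counts as kept. The average over slides of miR-92a, 0.08, became -0.32 under median scaling and -0.12 with the series matrix in this way. For guides undetected in one group the floor fixes the direction. The 6 came with scaling to the hur features and all concern miR-92a: 0.10 for the knockdown with vehicle, -0.89 with metformin, 1.28 and 0.29 for metformin in control and Dicer shRNA cells, -0.99 for the interaction and -0.40 for the average over slides. The cause was not tested. With that scaling 4 guides, not 7, were called for the knockdown with vehicle. The knockdown with metformin, with 1 guide called, had 0 under median scaling (miR-92a 0.42, adjusted p = 0.106) and 2 with array weights. Metformin in Dicer shRNA cells, with 2, had 1 without a detection filter and 1 with the series matrix, where miR-92a was lost (adjusted p = 0.063 and 0.11). With only microRNAs detected on all 12 arrays, miR-92a alone is fitted, and the counts become 1 for the knockdown with vehicle, 1 for metformin in each line, 1 for the interaction and 0 for the average. Under quantile normalization miR-92a was -0.15 for the knockdown with vehicle and did not pass (adjusted p = 0.473). Leaving out each array in turn gave 5 to 8 called guides for the knockdown with vehicle and 1 to 2 with metformin, 6 to 8 and 1 to 2 for metformin in control and Dicer shRNA cells, 6 to 7 for the interaction and 4 to 6 for the average. Without replicate 1 of control shRNA cells with metformin, more microRNAs enter the scaling, and miR-92a no longer passed for the knockdown with vehicle (-0.33, adjusted p = 0.104). The interaction of miR-18b lost its call in 10 of the 12. The log2 ratio of miR-19b to miR-92a differed by -2.72 to -2.20 with arrays left out and by -2.02 when 16 was added to signals instead of a floor.

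Over all 208 microRNAs the knockdown with vehicle called 45 higher and 79 lower, against 67 and 39 with hur scaling and 17 and 105 with viral scaling. Metformin in control shRNA cells called 99 higher and 84 lower, against 139 and 45, and 29 and 132. No pairing of samples by replicate number was evident, as deviations of same-numbered arrays correlated at -0.19 to 0.32, which cannot exclude it. With the replicate block 7, 1, 7, 2, 6 and 5 guides were called in the 6 comparisons, miR-18b losing its interaction (adjusted p = 0.0574), and the log2 ratio difference stayed -2.54. Scaling to the 75th percentile over all human names was not run, since that percentile fell on undetected values. Guides near the floor, miR-18b and miR-20b above all, are limited by detection.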

Other observations

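MYC activates the miR-17/92 cluster and represses another group of microRNAs, among them the let-7, miR-29, miR-26 and miR-30 families, many of them known as tumour suppressors. Of 31 such names, 26 were fitted. Detected on all 3 arrays were 9 in Dicer shRNA cells with metformin, 5 in control shRNA cells with metformin, 14 in Dicer shRNA cells with vehicle and 26 in control shRNA cells with vehicle, and for those seen throughout in the last group alone this fixes the direction. With vehicle 25 were called lower in Dicer shRNA cells, where 38.0% of all fitted microRNAs were. The 4 with the largest changes were let-7a at -3.56 ± 0.40, miR-29b at -3.53 ± 0.12, let-7i, undetected in Dicer shRNA cells and at least 10.3-fold lower, and miR-27a, 8.85-fold lower. With metformin 8 of the 26 were called higher in Dicer shRNA cells, where 13.9% of all fitted microRNAs were, led by miR-29a at 3.25 ± 0.18 (detected on 1 array of control shRNA cells). In control shRNA cells 25 were called lower with metformin, where 40.4% of all fitted microRNAs were called lower and 88.0% in either direction, led by miR-29a at -6.27 ± 0.18. In Dicer shRNA cells 11 were called lower, where 18.3% of all fitted microRNAs were, led by miR-27a, which was undetected with metformin and at least 8.16-fold lower.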
